A study of Rattus norvegicus with 3 samples.

Results

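The genes described here are the nuclear receptors of the rat apart from the circadian clock receptors, the Nr4a group and a few others. They were chosen by symbol from a list of 35 names, with earlier results of these data known. Of these, 32 were found among the 16629 genes and unnamed regions of the expression table, in 35 entries. Rarb, Nr2e1 and Nr6a1 were not analysed here. Poly(A) RNA of adult rats of the Sprague-Dawley strain, housed with 14 h of light and 10 h of darkness a day, was sequenced in 3 libraries. The first was from pineal glands taken at midnight (zeitgeber time 19, in hours after lights on), the second from pineal glands taken at midday (zeitgeber time 7). The third, from midday, combined equal amounts of RNA from 15 other tissues: 6 parts of the central nervous system (cerebellum, cortex, hindbrain, hypothalamus, midbrain and spinal cord), the retina, the pituitary and adrenal gland, and liver, heart, kidney, lung, small intestine and skeletal muscle. Each group had 1 library, so the differences have no replicate check and carry no p-value. The sources used here do not give the number of animals behind a library, and a transcript made in a single organ of the mixture is diluted by the rest.

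Nuclear receptors are transcription factors that bind DNA through a pair of zinc fingers and, in many cases, a small lipid-soluble ligand through a second domain. The retinoid X receptors (RXRs) pair with many of the others, among them the receptors for retinoic acid, fatty acids, oxysterols, bile acids and vitamin D. Steroid receptors and several orphan receptors bind DNA without them, as pairs of like proteins or alone. In the retina of mammals, a sensory tissue that shares much of its gene programme with the pineal gland, Rxrg is known from cone photoreceptors and Esrrb from rods.

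The level of a gene is given in FPKM, a count of fragments divided by transcript length and by the fragments mapped in that library, so levels of different genes can be set side by side. Ratios are log2 ratios of FPKM + 1, which understates the fold of low genes, and are given for genes with at least 1 FPKM in at least 1 of the 2 libraries compared. Pineal markers were in place: Tph1, the first enzyme of melatonin synthesis, stood at 4245 FPKM by night, 4665 by day and 0.309 in the mixed tissues. The estimated sequencing depth was 5.29 fragments per kilobase at 1 FPKM by night, 8.74 by day and 9.66 in the mixed tissues. For a transcript of 1 kb at 5 FPKM this gives 95% counting bounds of 3.21 to 7.20 FPKM by night, 3.66 to 6.76 by day and 3.66 to 6.59 in the mixed tissues. On 1 kb, 3 fragments, used here as a floor, equal 0.567 FPKM by night, 0.343 by day and 0.311 in the mixed tissues. Folds of FPKM below carry a 95% interval computed as if each transcript were 1 kb long. It covers counting error only, and would be narrower for a longer transcript.

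The upstream regions of 4 members are shown because these genes carry the day and night differences described below. On the FPKM + 1 scale, Rara and Rxrg were the members with the lowest night over day ratios, and Nr2c1 had the highest. In FPKM alone the fold of Ppara was above that of Nr2c1 but rests on few fragments. Nr2c2 is the close relative of Nr2c1 that did not share its direction. Each sequence runs from 250 bases before to 50 bases after the RefSeq gene start on build GRCr8, + strand (Rxrg chr13:82276237-82276536, Rara chr10:84411217-84411516, Nr2c1 chr7:30602357-30602656, Nr2c2 chr4:126193830-126194129). Capitals mark matches to 5 motifs on either strand. These are the cAMP response element TGACGTCA, its 5-letter core TGACG (which lies inside it), the hexamer AGGTCA bound by nuclear receptors, the E-box CACGTG bound by clock activators, and TAATCC, bound by the pineal and retinal homeodomain factors Crx and Otx2.
Rxrg: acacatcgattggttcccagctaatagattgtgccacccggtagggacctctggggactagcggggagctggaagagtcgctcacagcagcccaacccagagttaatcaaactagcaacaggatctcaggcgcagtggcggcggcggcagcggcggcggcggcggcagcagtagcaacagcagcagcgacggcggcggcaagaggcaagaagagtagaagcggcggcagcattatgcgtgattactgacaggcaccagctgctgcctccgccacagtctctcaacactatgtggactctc
Rara: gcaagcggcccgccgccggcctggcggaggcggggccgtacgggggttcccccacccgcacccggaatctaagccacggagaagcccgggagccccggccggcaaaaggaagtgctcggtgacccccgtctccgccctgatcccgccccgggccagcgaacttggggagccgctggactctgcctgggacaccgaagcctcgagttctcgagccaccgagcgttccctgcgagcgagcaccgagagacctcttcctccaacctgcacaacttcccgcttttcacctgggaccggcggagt
Nr2c1: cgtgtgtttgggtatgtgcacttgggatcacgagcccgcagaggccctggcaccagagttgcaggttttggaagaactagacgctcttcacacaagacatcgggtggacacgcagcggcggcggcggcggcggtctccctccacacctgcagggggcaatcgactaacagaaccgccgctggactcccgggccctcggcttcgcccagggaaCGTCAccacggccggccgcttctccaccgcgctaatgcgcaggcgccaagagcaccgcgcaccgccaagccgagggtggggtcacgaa
Nr2c2: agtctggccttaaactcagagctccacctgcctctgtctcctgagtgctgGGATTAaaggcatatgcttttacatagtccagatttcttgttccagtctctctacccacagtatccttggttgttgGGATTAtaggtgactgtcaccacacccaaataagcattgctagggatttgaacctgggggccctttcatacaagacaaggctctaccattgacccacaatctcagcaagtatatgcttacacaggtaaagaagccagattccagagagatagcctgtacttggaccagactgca

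In these 4 windows, Nr2c1 held a single match, the core of the cAMP response element on the reverse strand (CGTCA) with its first base 38 bases before the gene start. Nr2c2 held 2 matches to the Crx and Otx2 motif, also on the reverse strand (GGATTA), and Rxrg and Rara held none of the 5. Promoter sequences were found for 27 of the 32 members. Among these, TGACGTCA was in 0 genes, TGACG in 5, AGGTCA in 4, CACGTG in 3 and TAATCC in 1. Of all 33469 promoters in the table, 1.83% held TGACGTCA, 21.2% TGACG, 16.2% AGGTCA, 6.42% CACGTG and 7.17% TAATCC. A match is a description of the letters, and its absence says nothing about binding elsewhere.

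The pineal gland held fewer of these receptors above 1 FPKM than the mixed tissues did. By night 17 of the 32 members reached 1 FPKM, by day 16 did, and in the mixed tissues 28 did. Over all genes and regions these shares were 56.5% by night, 57.6% by day and 70.3% in the mixed tissues. The median member level was 1.33 FPKM by night, 1.03 by day and 5.85 in the mixed tissues, against medians over all features of 2.00, 2.29 and 4.86. The summed level of the 32 genes was 232 FPKM by night, 272 by day and 218 in the mixed tissues. Rxrg alone held 25.3% of that sum by night and 39.9% by day, whereas the highest member of the mixed tissues, Nr1h2, held 9.11%.

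**Figure D1:**
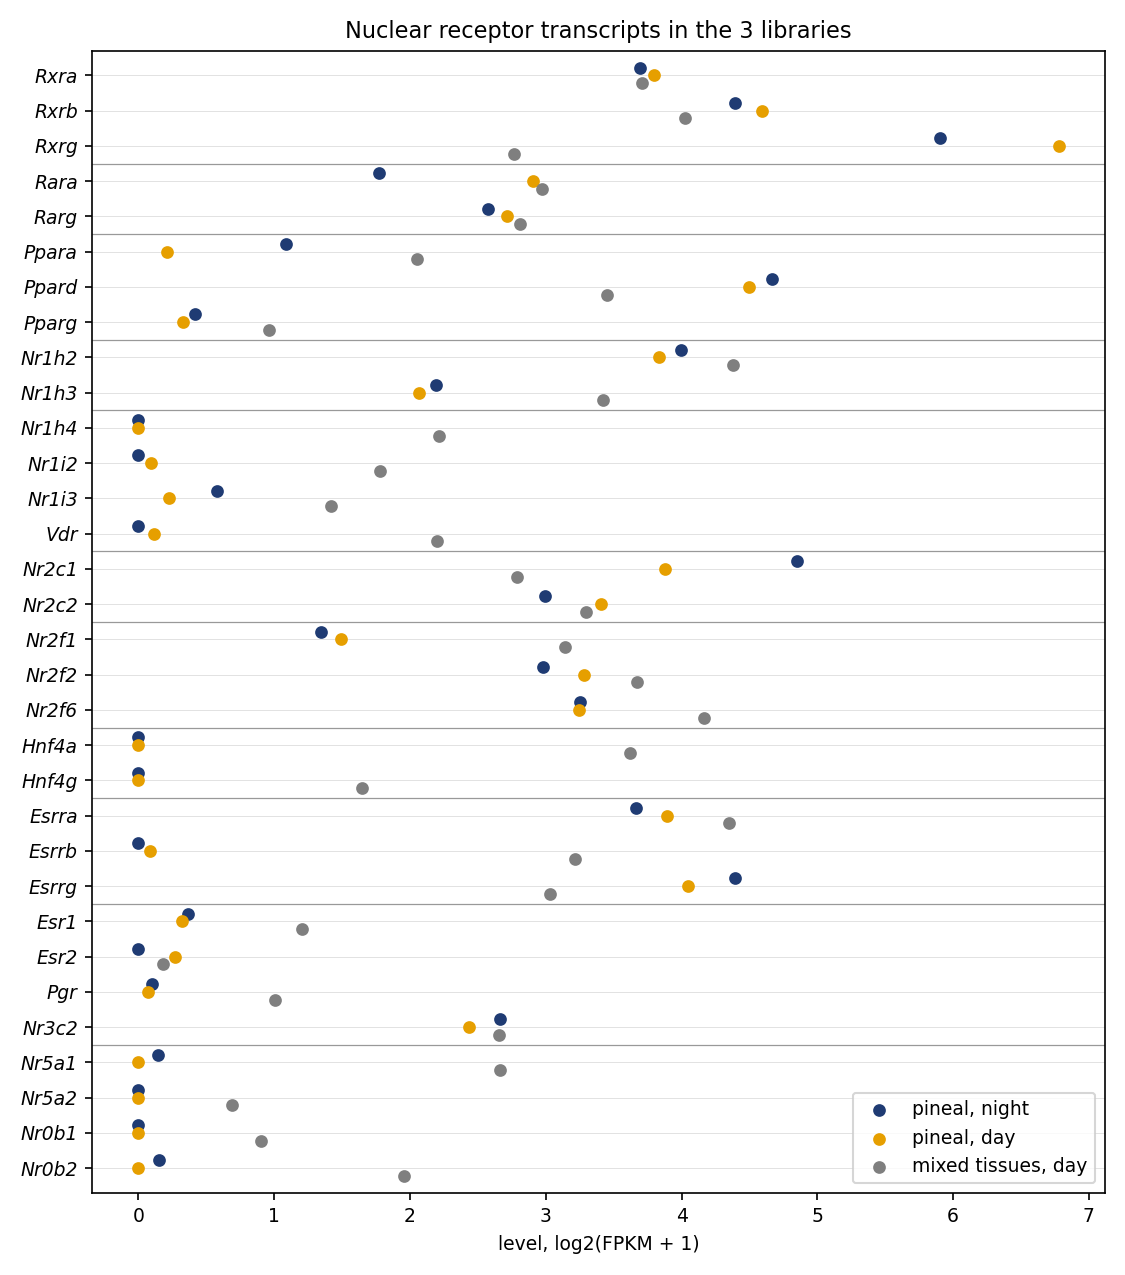
Level of each of the 32 receptors as log2(FPKM + 1), with 1 point per library (pineal night, pineal day, mixed tissues at day). Horizontal lines separate subfamilies. Rxrg stands apart at 58.9 FPKM by night and 109 by day, against 5.81 in the mixed tissues, and 15 members lie below 1 FPKM in both pineal libraries.

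Among the RXRs, the shared partners of the family, Rxrg was the member with the largest ratio between the gland and the mixed tissues. Rxrg (Gene ID 83574, chr13:83256823-83298724, rn4) stood at 58.9 FPKM by night, 109 by day and 5.81 in the mixed tissues. It ranked 679th of all genes and regions by night, 258th by day and 7683rd in the mixed tissues. Against the mixed tissues the day level was 18.7-fold higher (counting interval 14.3 to 25.0, log2 ratio 4.01), and by day no other member was at least 4-fold higher. Of all 11934 features compared, 2.29% were. The night level was 10.1-fold that of the mixed tissues (7.61 to 13.7), a comparison in which the hour differs as well as the tissue. By night it was 0.541-fold the day level (0.474 to 0.615), which on the FPKM + 1 scale is a log2 ratio of -0.87 and lies within 2-fold.

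The other RXR genes lay within 2-fold between the libraries. Rxra, the form common in liver and many other tissues, was at 11.9 FPKM by night, 12.9 by day and 12.1 in the mixed tissues. Rxrb, which is expressed widely, was at 20.02, 23.2 and 15.3 FPKM. Rxrg therefore held 64.8% of the summed RXR level by night and 75.1% by day, against 17.5% in the mixed tissues. The summed RXR level was 90.8 FPKM by night, 145 by day and 33.2 in the mixed tissues.

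**Figure D2:**
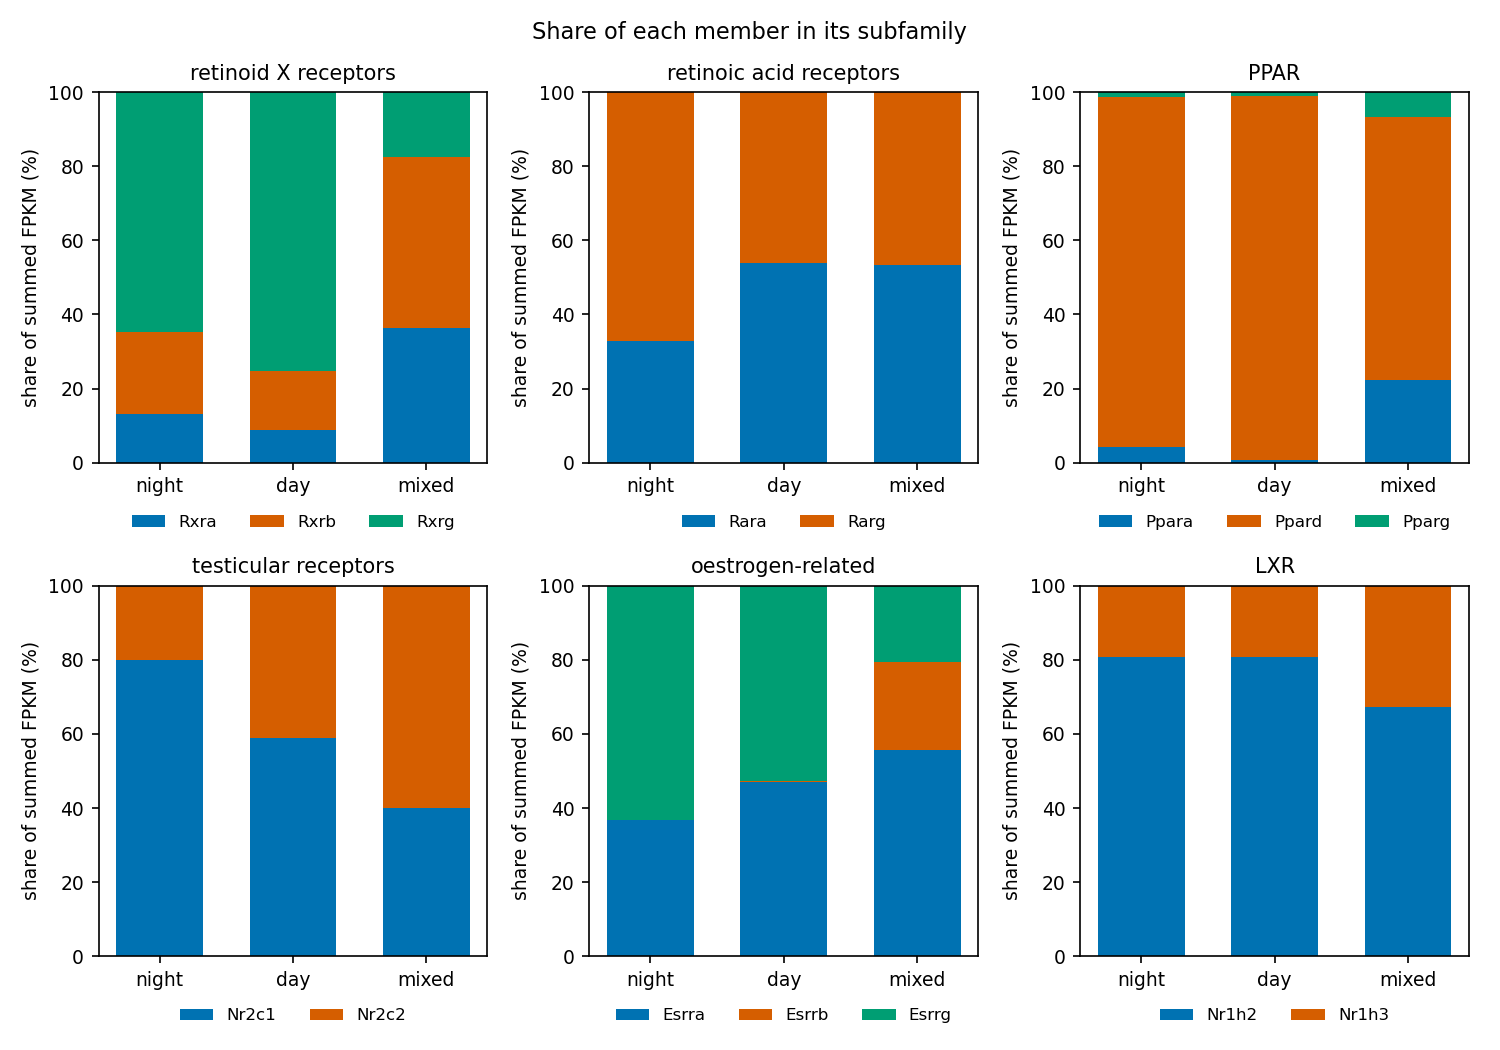
Share of each gene in the summed FPKM of its subfamily, as stacked bars that add to 100%, for the night pineal, day pineal and mixed-tissue libraries. Rxrg takes 64.8% and 75.1% of the RXR bars of the gland and 17.5% of the mixed bar, and Nr2c1 takes 80.0% by night, 58.8% by day and 40.1% in the mixed tissues.

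Among 17 members compared between night and day, none was 2-fold or more above its day level (0 of 17), 1 was at least 2-fold below it and 16 were within 2-fold. Over all 9826 features 4.18% were 2-fold or more above and 2.11% below, so the members' share past 2-fold was near the background. Their median log2 ratio was -0.10, beside -0.11 for all features. With the ratios centred on that overall median, 1 member was higher (Nr2c1) and 1 lower (Rara). The 15 members left out lay below 1 FPKM in both pineal libraries.

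**Figure D3:**
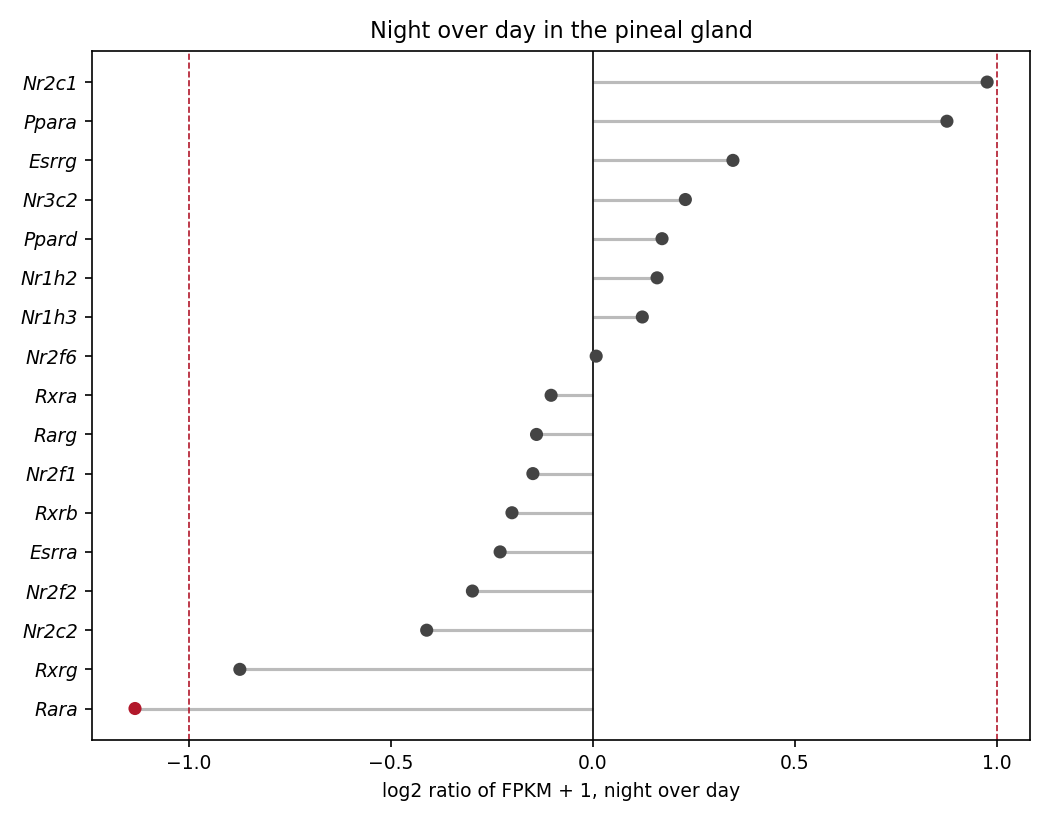
Log2 ratio of FPKM + 1, night over day, for the 17 receptors with at least 1 FPKM in at least 1 pineal library. Dashed lines mark 2-fold and red marks members past it. Rara lies past the lower line at -1.13, and Nr2c1 lies just inside the upper line at 0.98.

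The member past 2-fold was Rara (Gene ID 24705, chr10:87740479-87753265, rn4), the alpha receptor for retinoic acid, which activates its targets as a pair with an RXR. It was at 2.41 FPKM by night, 6.49 by day and 6.84 in the mixed tissues. The night level was 0.372-fold the day level (0.189 to 0.697, log2 ratio -1.13), and the day level lay close to that of the mixed tissues (log2 ratio -0.07). The gamma receptor Rarg, summed over its 2 entries, was at 4.95 FPKM by night, 5.55 by day and 6.0 in the mixed tissues. Rara accordingly made up 32.8% of the summed RAR level by night, 53.9% by day and 53.3% in the mixed tissues.

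The 2 Rarg entries differed in direction, and for both the counting interval on 1 kb included equal levels. A longer transcript would narrow these intervals. The one with the longer span (chr7:140991447-141014108, rn4) was at 2.55 FPKM by night, 2.03 by day and 1.94 in the mixed tissues, a night over day fold of 1.26 (0.538 to 2.58). The one with the shorter span (chr7:140991447-141003286) was at 2.40 FPKM by night, 3.52 by day and 4.06 in the mixed tissues, a fold of 0.681 (0.333 to 1.36). The forms overlap, and the sources used here do not say how reads were divided between them, so their values are less certain than the sum.

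Nr2c1 and Nr2c2 encode the testicular receptors TR2 and TR4, orphan receptors that bind direct repeats of the AGGTCA hexamer. Nr2c1 (Gene ID 252924, chr7:31293703-31345189, rn4) was at 27.9 FPKM by night, 13.7 by day and 5.89 in the mixed tissues. The night level was 2.04-fold the day level (1.59 to 2.62), which the FPKM + 1 scale places just below 2-fold (log2 ratio 0.98). It was the second highest member by night, at rank 1715 of all features, and ranked 3513th by day. Nr2c2 was at 6.97 FPKM by night, 9.60 by day and 8.82 in the mixed tissues (night over day log2 ratio -0.41). The share of Nr2c1 in the sum of both was 80.0% by night, 58.8% by day and 40.1% in the mixed tissues, so the leading gene of the pair differed between gland and mixture.

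The 3 PPARs, receptors for fatty acids that govern lipid use, were represented in the gland mainly by Ppard. Ppard (delta, expressed in most tissues) was at 24.4 FPKM by night, 21.6 by day and 9.95 in the mixed tissues. It held 94.3% of the summed PPAR level by night, 98.1% by day and 70.9% in the mixed tissues. Ppara, the form known for fatty acid oxidation in liver, was at 1.13 FPKM by night, 0.160 by day and 3.14 in the mixed tissues. Its night level was 7.07-fold the day level, but the interval of 1.203 to 456 shows how few fragments stand behind it (log2 ratio 0.88). Pparg, the form known from fat cells, stayed at or below 0.334 FPKM in the gland, under the floor by night and by day. In the mixed tissues it was at 0.947 FPKM. These values sum 3 overlapping entries that differed in direction. The entry with the shortest span was at 0.334 FPKM by night, 0.253 by day and 0 in the mixed tissues. The entry with the longest span was at 0 in the gland and 0.946 FPKM in the mixed tissues.

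The liver X receptors respond to oxysterols and raise genes of cholesterol export. Nr1h2 (LXR beta, widely expressed) was at 14.9 FPKM by night, 13.3 by day and 19.9 in the mixed tissues. Nr1h3 (LXR alpha, high in liver and macrophages) was at 3.56, 3.19 and 9.73 FPKM. Both lay within 2-fold between night and day, at log2 ratios of 0.16 and 0.12. Nr1h3 by day was 0.328-fold the mixed-tissue level (0.208 to 0.506, log2 ratio -1.36).

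Of the oestrogen-related receptors, orphan receptors that act on genes of energy metabolism, the gland held Esrra and Esrrg but almost no Esrrb. Esrrg was at 20.1 FPKM by night, 15.6 by day and 7.20 in the mixed tissues, with a day over mixed fold of 2.16 (1.62 to 2.95). Esrra was at 11.7, 13.9 and 19.4 FPKM. Its span overlaps 50 bases of the neighbouring entry RGD1309710, which was at 63.7, 74.3 and 49.9 FPKM, so a small part of either value could belong to the other. Esrrb was listed at 0 by night and stood at 0.0619 FPKM by day and 8.27 in the mixed tissues, which include retina (day over mixed log2 ratio -3.13). Esrrg thus led this subfamily in both pineal libraries with 63.2% of the sum by night and 52.8% by day, whereas Esrra led it in the mixed tissues with 55.6%.

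The COUP factors, orphan receptors of development that often act as repressors, stood below their mixed-tissue levels in the gland, Nr2f2 by the least. Nr2f1 was at 1.54 FPKM by night, 1.81 by day and 7.80 in the mixed tissues. Nr2f2, known also from veins and mesenchyme, was at 6.89, 8.71 and 11.7 FPKM. Nr2f6 was at 8.51, 8.46 and 16.9 FPKM. All 3 lay within 2-fold between night and day, and the log2 ratios of day pineal over mixed tissues were -1.65, -0.39 and -0.92. For Nr2f2 the counting interval of the day over mixed fold on 1 kb, 0.548 to 1.002, just included equal levels. A longer transcript would narrow it. Nr3c2, the mineralocorticoid receptor, was the only steroid receptor among the members above 1 FPKM in the gland, at 5.32 FPKM by night, 4.39 by day and 5.30 in the mixed tissues.

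In total 15 members were below 1 FPKM in both pineal libraries, with 0.496 FPKM as their highest value, and 11 of these reached 1 FPKM in the mixed tissues. In the gland 5 were listed at 0 both by night and by day: Hnf4a, Hnf4g, Nr1h4, Nr5a2 and Nr0b1. For these counts over both pineal libraries no share of all features was computed. Library by library, 9 of the 32 members were at 0 by night and 7 by day. Of all 16629 features, 4378 were at 0 by night and 3992 by day, so the members lay near the background. A low listing is not always a low transcript in this table, since Gapdh, used by every cell, is listed at 0.404 FPKM by night, 0.139 by day and 0.0707 in the mixed tissues. Among the receptors of liver, intestine and kidney, Hnf4a, a master regulator of hepatocyte genes, was at 11.3 FPKM in the mixed tissues. Nr1h4 (FXR, the bile acid receptor) was at 3.64 FPKM there. Vdr, the vitamin D receptor, was listed at 0 by night and was at 0.0851 FPKM by day and 3.58 in the mixed tissues. Nr1i2 (PXR) and Nr1i3 (CAR), sensors of foreign compounds, were at 0 and 0.496 FPKM by night, 0.0662 and 0.168 by day, and 2.43 and 1.67 in the mixed tissues.

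Most receptors of steroid-producing and reproductive tissues were also lower in the gland, though Esr2 was not by day. Nr5a1 (SF-1), which drives steroid synthesis genes in the adrenal gland and gonadotropin genes in the pituitary, was at 0.105 FPKM by night, listed at 0 by day and at 5.35 FPKM in the mixed tissues. Nr0b2 (SHP), a receptor without a DNA-binding domain that represses bile acid synthesis, was at 0.110 FPKM by night, 0 by day and 2.88 in the mixed tissues. The progesterone receptor Pgr was at 0.0724, 0.0518 and 1.004 FPKM, and the oestrogen receptor Esr1 at 0.285, 0.251 and 1.31 FPKM. The Esr1 entry lies on an unplaced stretch of chromosome 1 in rn4, where it spans only bases 174574 to 178095. How much of the gene it covers was not tested, so its low level is uncertain. Esr2 was below 1 FPKM in all libraries, at 0 by night, 0.208 by day and 0.135 FPKM in the mixed tissues.

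Against the mixed tissues at the same hour, 28 members could be compared. By day 1 was at least 4-fold higher in the gland (Rxrg), 5 were at least 4-fold lower (Hnf4a, Esrrb, Nr5a1, Nr1h4 and Vdr) and 22 lay within 4-fold. Over all 11934 features 2.29% were at least 4-fold higher and 13.2% lower, with a median log2 ratio of -0.27 beside -0.90 for the members. All 28 reached 1 FPKM in the mixed tissues, but by day only 16 members did in the gland. The rest, with all 5 lower ones, passed the filter through the mixture alone, so their ratios could only be negative. With a filter at 5 FPKM the medians were -0.23 for the members and -0.17 for all features. By night 2 members passed 4-fold upward against the mixture sampled at midday (Rxrg, and Nr2c1 at a fold of 4.73 with an interval of 3.47 to 6.55) and the same 5 were below, beside 3.09% and 14.4% of all features. These comparisons share the mixed library. At 2-fold by day, 4 members were higher (Rxrg, Nr2c1, Ppard and Esrrg) against 8.32% of all features, and 12 were lower against 28.9%. The count of 5 depends on low values: 3 of the 5 are listed at 0 by day, and with a pseudocount of 0.1 in place of 1 the count was 13, with one of 5 it was 0, and with the ratios centred it was 3. Markers of the organs in the mixture differed in how far they were absent from the gland. The 6 adrenal gland markers summed to 0.731 FPKM by night, 0.909 by day and 516 in the mixed tissues, the 4 small intestine markers to 0.145, 0.283 and 194, and the 6 pituitary markers to 2.49, 2.25 and 7781. Of the 5 liver markers, Alb and Fgb were listed at 0 in both pineal libraries, but the list summed to 628 FPKM by night, 545 by day and 4046 in the mixed tissues. Most of the pineal sum was Ttr, the transthyretin gene, which the choroid plexus also expresses, at 607, 516 and 685 FPKM. The 6 kidney markers summed to 20.2 FPKM by night, 24.4 by day and 90.8 in the mixed tissues, and the pineal sum was nearly all Nphs1, at 19.2, 23.7 and 0.507 FPKM.

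**Figure D4:**
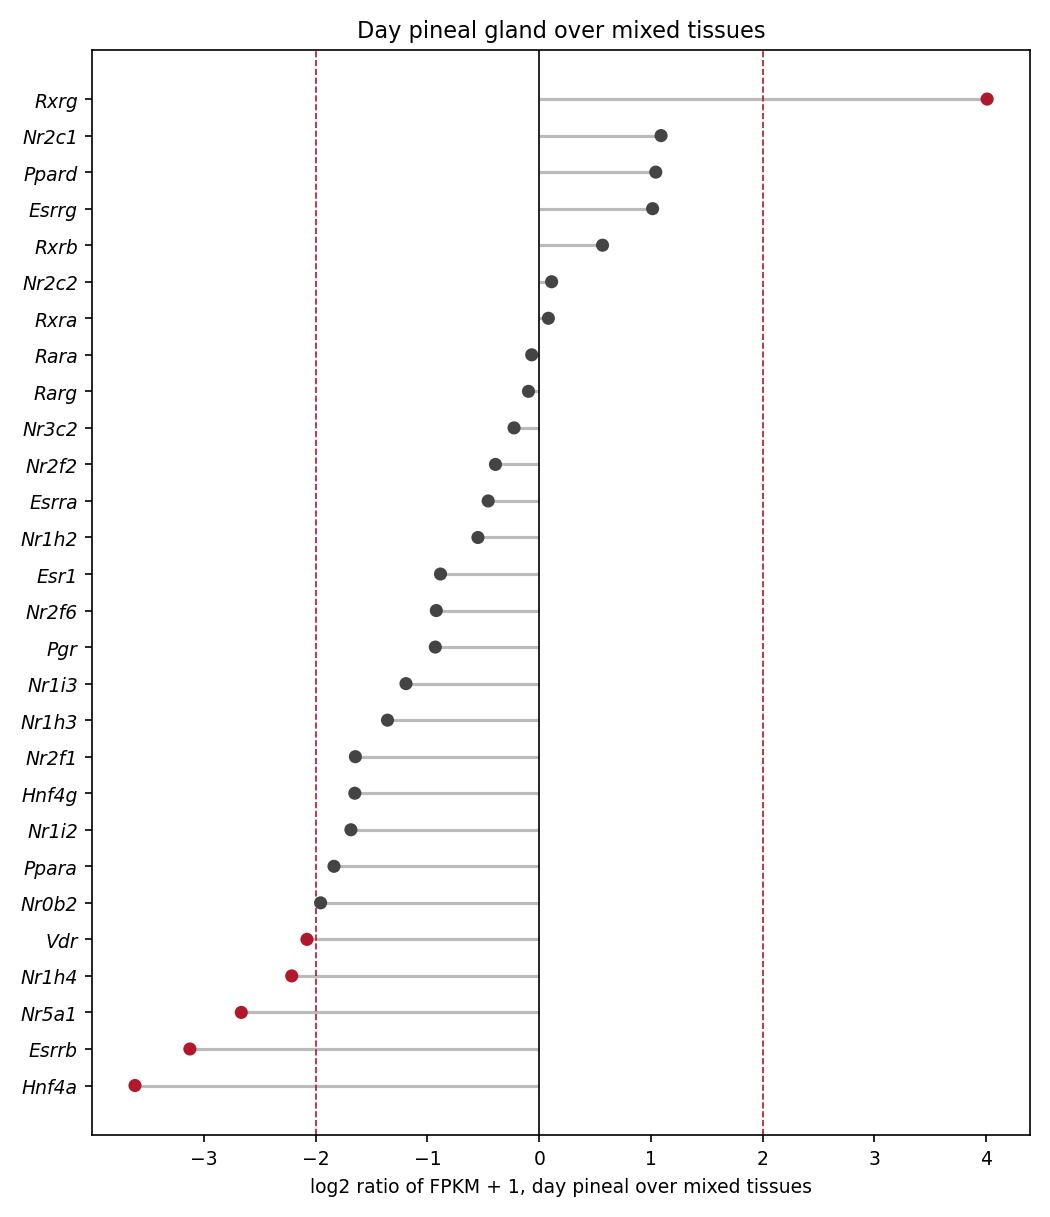
Log2 ratio of FPKM + 1, day pineal gland over mixed tissues, for the 28 receptors compared. Dashed lines mark 4-fold and red marks members past it. Rxrg lies at 4.01 and the 5 members past the lower line run from Vdr at -2.08 to Hnf4a at -3.62.

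Markers of some cell types in the gland also differed between night and day, and in bulk tissue fewer cells of a type cannot be told apart from less RNA per cell. The 6 fibroblast and meningeal markers summed to 180 FPKM by night and 242 by day, with a median log2 ratio of -0.37 and none at 0. The 5 astrocyte markers summed to 88.1 and 119 FPKM (median -0.43, none at 0), and the 6 oligodendrocyte markers to 16.1 and 30.1 FPKM (median -0.60 over the 3 compared, with Mobp listed at 0 by night). The 7 microglia markers summed to 68.8 and 69.6 FPKM (median 0.05), the 5 neuron markers to 1383 and 1335 (median 0.31 over the 3 compared) and the 5 endothelial markers to 17.5 and 20.9 (median -0.31 over the 4 compared, with Cldn5 at 0). Most of the neuron sum was Snap25, with 1217 FPKM (night) and 1213 (day). Nefl and Nefm, left out of the neuron median, stayed below 1 FPKM in the gland, against 154 and 143 in the mixed tissues. The 11 pinealocyte markers summed to 9688 FPKM by night and 7272 by day (median 0.83). Of these, 10 had positive ratios and 1, Tph1, a negative one (-0.14), and the sizes were uneven. Aanat rose from 5.34 FPKM by day to 762 by night, and Bsx from 60.6 to 493. The part of these shifts in the night and day values of Rara, Rxrg and Nr2c1 was not tested.

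Coregulators, the proteins that receptors recruit to raise or lower transcription, stayed within 2-fold between night and day on the FPKM + 1 scale where compared. Of 8 coactivator genes compared, 0 were past 2-fold in either direction (median log2 ratio -0.05), and of 7 corepressor genes 0 were (median -0.16). Over all features 4.18% were at least 2-fold higher and 2.11% lower (median -0.11), so 0 in lists this short is near the background. Ncoa4 was the highest coactivator at 76.2 FPKM by night, 53.3 by day and 32.3 in the mixed tissues. Ncoa1, also called SRC-1, was at 31.4, 26.3 and 13.8 FPKM, and the histone deacetylase Hdac3, the enzyme of the NCoR complex, at 42.5, 47.6 and 20.9 FPKM. The lowest night over day ratios among the coactivators, singled out after their values were seen, were those of the PGC-1 genes. Ppargc1a, a partner of PPARs and oestrogen-related receptors in mitochondrial gene control, was at 0.893 FPKM by night, 2.04 by day and 4.59 in the mixed tissues (night over day log2 ratio -0.69). Ppargc1b was at 0.443, 1.71 and 2.24 FPKM (-0.91). In FPKM alone, without the added 1, the night levels were 0.437-fold and 0.259-fold the day levels, past 2-fold.

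Several known target genes of the receptors were past 2-fold between night and day. The target lists were written with earlier results of these data in view, and each target answers to other factors as well. Among 6 retinoic acid targets compared, Dhrs3, a retinaldehyde reductase, was at 7.52 FPKM by night, 20.7 by day and 23.3 in the mixed tissues (night over day log2 ratio -1.35), and the other 5 lay within 2-fold. Like Rara, it was lower by night and near the mixed-tissue level by day, and a link between the genes was not tested. The list median was -0.14, beside -0.11 for all features, of which 4.18% were at least 2-fold higher and 2.11% lower. Of the 6, 4 had negative and 2 positive ratios. Rarres1, a retinoid-induced membrane protein gene, was at 41.8 FPKM by night, 38.0 by day and 5.37 in the mixed tissues, and Cyp26b1, which degrades retinoic acid, at 0.593, 0.983 and 7.14 FPKM.

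Of 9 PPAR targets compared between night and day, 0 passed 2-fold on the night side and 2 passed it on the day side. Over all features these shares were 4.18% and 2.11%. The list median was -0.68 on the log2 scale, beside -0.11 for all features. Cpt1a, the gate of fatty acid entry into mitochondria, was at 10.2 FPKM by night, 34.6 by day and 21.3 in the mixed tissues (night over day log2 ratio -1.67). Fabp4, a fatty acid binding protein of fat cells, was listed at 0 by night and at 1.05 FPKM by day. It was thus just above the filter at 1 FPKM (log2 ratio -1.03). By day, 0 of 14 PPAR targets passed 4-fold upward against the mixture and 5 passed it downward, beside 2.29% and 13.2% of all features. By night the counts were 0 and 7, beside 3.09% and 14.4%, among them Fabp1, listed at 0 in the gland and at 420 FPKM in the mixture.

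Among 8 LXR targets compared, Abca1, the pump that loads cholesterol onto lipoproteins, was at 50.8 FPKM by night, 10.2 by day and 4.43 in the mixed tissues (night over day log2 ratio 2.21). The other 7 lay within 2-fold, and the list median was 0.21. Lpl, lipoprotein lipase, was at 141, 130 and 37.4 FPKM. The LXR genes themselves lay within 2-fold, as given above.

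In the list of steroid receptor targets 3 of 6 genes compared were above 2-fold by night, 0 were below it in the other direction, and the median was 1.11. Over all features 4.18% were above and 2.11% below, with a median of -0.11. Fkbp5, a cochaperone of steroid receptors that also responds to glucocorticoids, was at 74.8 FPKM by night, 20.6 by day and 5.92 in the mixed tissues (log2 ratio 1.81). Xbp1, an oestrogen-responsive gene that also serves the unfolded protein response, was at 78.5, 30.3 and 55.02 FPKM (1.35). The clock gene Per1 was the remaining member past 2-fold (2.77).

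Target lists of the receptors that were near 0 in the gland varied in level there. The steroid receptor list above belongs here only in part, as it also covers the mineralocorticoid receptor Nr3c2. Esr1 and Pgr were near 0 in the gland. Nr3c2 had a night value of 5.32 FPKM, a day value of 4.39 and a mixed-tissue value of 5.30. Some genes of that list were well expressed in the gland, and which receptor acts on them was not tested. The 11 bile acid and xenobiotic target genes found summed to 0.869 FPKM by night, 1.16 by day and 157 in the mixed tissues. The 12 steroid synthesis and gonadotropin genes tied to Nr5a1 summed to 0.995, 1.70 and 682 FPKM. The 6 vitamin D targets summed to 17.8, 24.4 and 132 FPKM, and nearly all of the pineal sum came from Calb1, a calcium-binding protein of neurons, at 16.9 FPKM by night and 23.0 by day. Of 8 other nuclear receptors found, 3 passed 2-fold on the night side, all of the Nr4a group, and 0 were lower (median 0.61). The shares over all features were 4.18% and 2.11% (median -0.11). Whether the 3 of 8 differ from the 0 of 17 members was not tested.

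**Figure D5:**
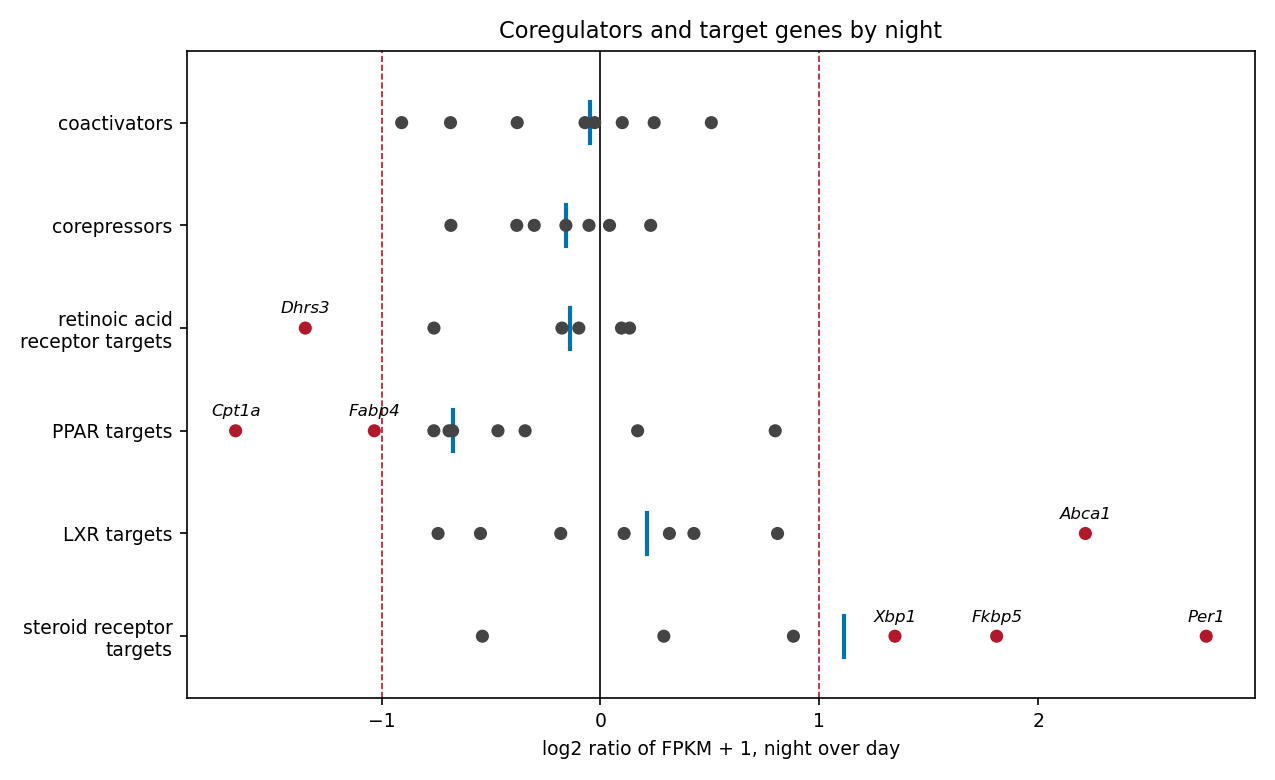
Log2 ratio of FPKM + 1, night over day, with 1 point per gene for coregulators and 4 lists of target genes. Blue bars mark list medians, dashed lines 2-fold, and red points with names the genes past it. No coregulator passes 2-fold on this scale (Ppargc1a and Ppargc1b do in FPKM alone), whereas Abca1 (2.21), Fkbp5 (1.81), Xbp1 (1.35) and Per1 (2.77) lie to the right and Cpt1a (-1.67), Dhrs3 (-1.35) and Fabp4 (-1.03) to the left.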

How the data were processed

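Expression was measured by RNA sequencing in 3 libraries, 1 per group. Per the labels, poly(A) RNA was fragmented, reverse transcribed from random primers, amplified for 15 PCR cycles and sequenced as paired ends of 51 bases. Per the submitters' processing notes, TopHat 1.3.1 and Cufflinks 1.2.0 were used with rn4, and the authors deposited FPKM values, per the file headers. The sources used here do not give options, duplicate removal or the division of shared reads.

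The series table and the sample files held the same value in 51267 of 51267 cases. Its 17089 entries were summed by symbol (342 symbols had several). Ratios are log2 of FPKM + 1, with a filter at 1 FPKM in the higher library. With 1 library per group no test was possible. Calls are by size, 2-fold for night against day and 4-fold against the mixed tissues. Depth was estimated from the smallest values of 1327 single-exon receptor gene models with spans of 800 to 1100 bp (22 models at the first step by day, 4 by night and 22 in the mixed tissues), so the night estimate rests on few. Intervals are exact for Poisson counts and cover counting error only. Coordinates are on rn4 with starts counted from 1, and promoter sequences are RefSeq's on GRCr8.

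Of the receptors, every member may be named. Of coregulators, targets and other nuclear receptors, the 3 highest by mean FPKM and any gene past the fold sizes may be named, and up to 3 of each marker list. A gene of the target lists is counted in its list but not reported here. Other genes named are marked as chosen after their values were seen or serve as a check. The members and the 22 lists (191 entries, 167 found) were chosen with earlier results of these data known. Alternatives tried were pseudocounts of 0.1 and 5, no filter, a filter at 5 FPKM, centring on the median and the highest entry of each symbol. The computation was tested on simulated data and used Python 3.11.15, pandas 2.3.3, numpy 2.4.6, scipy 1.17.1 and matplotlib 3.10.9.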

Additional observations from a re-analysis of the deposited data

How the results depend on the processing

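Rxrg was the single member at least 4-fold higher in the day pineal gland than in the mixed tissues under all 6 alternatives, and Rara the single member at least 2-fold lower by night under 5 of them. With a pseudocount of 5, 0 members were at least 2-fold lower by night. With a pseudocount of 0.1, 2 were at least 2-fold higher by night (Nr2c1 and Ppara), and 1 (Nr2c1) with centring. The number at least 4-fold below the mixed tissues was 13 with a pseudocount of 0.1, 0 with one of 5, 3 with a filter at 5 FPKM and 3 with centring. The median night over day log2 ratio was 0.0081 without a filter (-0.09 for all features) and 0.0064 with centring. The median day pineal over mixed log2 ratio was -1.29 and -0.37 with pseudocounts of 0.1 and 5. It was -0.79 without a filter, -0.23 with a filter at 5 FPKM and -0.63 with centring. For all features the medians were -0.31 and -0.17 with those pseudocounts, -0.23 without a filter and -0.17 with the filter at 5 FPKM. The filters change which members are compared, and a larger pseudocount shrinks ratios of low genes by construction. Low depth limits every member below 1 FPKM in the gland, most of all by night. No paired analysis was possible because each group has 1 library.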
